A study of Mus musculus with 9 samples.

Results

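The genes described here belong to 3 signaling systems that dampen or redirect macrophage activation: IL-10 and its receptor chains, the IL-4 and IL-13 receptor chains, and TGF-beta1 and its receptors, together with *Chil3* and *Retnla*, which macrophages transcribe in response to IL-4 and IL-13. The 10 genes, *Il10*, *Il10ra*, *Il10rb*, *Il4ra*, *Il13ra1*, *Tgfb1*, *Tgfbr1*, *Tgfbr2*, *Chil3* and *Retnla*, were taken by name from a table of 54059 genes, and all 10 were present in it. Of these, 9 had a mean of at least 1 FPKM (fragments scaled to transcript length and library depth) over the 9 libraries and were tested among 11450 such genes. *Il10* lay below that limit.

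IL-10 binds a receptor made of a ligand-binding chain and a chain shared with related cytokines, acts through STAT3, and limits the output of inflammatory cytokines by macrophages. IL-4 and IL-13 signal through the IL-4 receptor alpha chain, paired with the common gamma chain or with IL-13 receptor alpha 1, and activate STAT6, which drives the genes of alternatively activated macrophages. TGF-beta1 is secreted in a latent form, is released by integrins and proteases, and signals through a pair of kinase receptors to SMAD proteins.

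The study asked what the phosphatase SHP2, encoded by *Ptpn11*, contributes to the response of macrophages to imiquimod (IMQ), a TLR7 agonist that induces psoriasis-like inflammation in mice. All 9 libraries came from adherent peritoneal macrophages of C57BL/6 mice aged 8 weeks, collected 3 days after an injection of 1 ml of starch broth, which recruits cells to the cavity, and given IMQ for 4 h in culture. The wild-type group (n = 3) had no inhibitor. The M-Shp2-/- group (n = 3, labelled SHP2lyz2-/-) lacked SHP2 in cells that express the *Lyz2*-driven Cre, that is, monocytes, mature macrophages and granulocytes. The SHP099 group (n = 3) was wild type and received the allosteric SHP2 inhibitor SHP099 at 10 µM for 2 h before IMQ. A group without IMQ was not analysed here, so no value below is a response to IMQ itself. Whether the replicates were separate animals, and how many mice gave cells for each, is not given in the sources used here, so the p-values measure only the spread between these samples.

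The depth recovered from the FPKM steps was 39841813 to 50979545 reads per library. *Ptpn11* had an FPKM of 45.8, 44.0 and 40.0 in wild-type libraries, 18.6, 17.8 and 18.9 in M-Shp2-/- libraries, and 43.0, 42.1 and 39.6 in SHP099 libraries. The M-Shp2-/- libraries lay below all others and kept 42.5% of the wild-type mean, so the genotype labels fit the gene.

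M-Shp2-/- library 3 stood apart from the rest of its group. Over the 11450 tested genes, its log2 values correlated with those of M-Shp2-/- libraries 1 and 2 at 0.967 and 0.954, whereas these latter libraries correlated with each other at 0.992, and library 3 correlated best with SHP099 library 1, at 0.984. The integrin gene *Itgax* (CD11c) had an FPKM of 200 and 267 in M-Shp2-/- libraries 1 and 2 and 13.5 in library 3. Fibroblast and B cell transcripts were also highest in M-Shp2-/- library 3, with a *Col1a1* of 206 FPKM and an *Igkc* of 257 FPKM. Counts of called genes, and the values of the 10 genes it moved most, are therefore given with and without it.

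*Il10* encodes the ligand IL-10 (ENSMUSG00000016529, chromosome 1 of GRCm38, 131019845 to 131024974). Its FPKM was 0.568, 2.43 and 2.05 in wild-type, 1.27, 0.779 and 0.737 in M-Shp2-/- and 0.0174, 0.0383 and 0.139 in SHP099 libraries, which correspond to 33, 162 and 114 reads, 72, 42 and 44 reads, and 1, 2 and 8 reads. *Il10* was thus low throughout and nearly undetected with SHP099, where each library lay below all 6 others. Wild-type library 1 lay below all 3 M-Shp2-/- libraries, so those groups overlapped.

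Pooled over libraries, SHP099 macrophages had 11 *Il10* reads against 309 in wild type. Allowing for depth, *Il10* was 26.0-fold lower with SHP099 (95% exact counting interval 14.3 to 52.6) and 1.84-fold lower in M-Shp2-/- macrophages (158 reads, interval 1.52 to 2.25). The fold with SHP099 ranged from 18.8 to 62.6 with 1 library left out, the highest without SHP099 library 3, which held 8 of the 11 reads. These intervals cover counting error only and not the spread between replicates, which was wide in wild type (1.68 ± 0.98 FPKM, SD, n = 3). When every gene above 0 was tested (26663 genes), the log2 fold change of *Il10* on the log2(FPKM + 1) scale was -1.25 with SHP099 (limma adjusted p = 0.163) and -0.41 in M-Shp2-/- macrophages (limma adjusted p = 0.720). Neither passed, and the scale understates changes of so low a gene. An exact permutation test of 3 libraries against 3 cannot go below 0.1 and was not used.

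*Il10ra* encodes the chain that binds IL-10 (ENSMUSG00000032089, chromosome 9, 45253837 to 45269149). Its FPKM was 35.1, 19.2 and 31.2 in wild-type, 23.6, 23.3 and 19.6 in M-Shp2-/- and 21.5, 25.2 and 25.1 in SHP099 libraries. Wild-type library 2 was the lowest of the 9 and wild-type libraries 1 and 3 the highest, so every pair of groups overlapped.

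*Il10rb* encodes the chain shared with the receptors of IL-22 and interferon lambda (ENSMUSG00000022969, chromosome 16, 91406164 to 91425834). Its FPKM was 69.4, 66.0 and 51.3 in wild-type, 70.9, 80.4 and 60.2 in M-Shp2-/- and 55.9, 56.6 and 53.2 in SHP099 libraries. All M-Shp2-/- libraries lay above all SHP099 libraries, and both groups overlapped wild type. Exons of *Il10rb* overlap *Gm21970* on the same strand, and exons of *Il4ra* overlap *Gm44876* on the opposite strand. The strand of counting is not given in the sources used here, and the share of these neighbors in the values is uncertain.

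*Il4ra* encodes the alpha chain common to the IL-4 and IL-13 receptors (ENSMUSG00000030748, chromosome 7, 125552120 to 125579474). Its FPKM was 64.1, 100.1 and 52.0 in wild-type, 45.6, 37.6 and 99.1 in M-Shp2-/- and 60.1, 38.6 and 35.9 in SHP099 libraries. Wild-type library 2 and M-Shp2-/- library 3 were high and the other 7 libraries lay between 35.9 and 64.1, so the spread within groups was as large as that between them.

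*Il13ra1* encodes the chain that completes the IL-13 receptor (ENSMUSG00000017057, chromosome X, 36112110 to 36171259). Its FPKM was 10.4, 9.73 and 7.63 in wild-type, 10.2, 10.6 and 6.99 in M-Shp2-/- and 6.97, 5.50 and 6.40 in SHP099 libraries. The SHP099 libraries were the lowest of the 9, although M-Shp2-/- library 3 was only just above them.

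*Tgfb1* encodes the ligand TGF-beta1 (ENSMUSG00000002603, chromosome 7, 25687002 to 25705077) and was the most abundant of the 10 genes in each group. Its FPKM was 532, 475 and 453 in wild-type, 547, 514 and 438 in M-Shp2-/- and 387, 381 and 438 in SHP099 libraries. Each SHP099 library was lower than each wild-type one, with a small gap for SHP099 library 3, and the group overlapped M-Shp2-/- library 3.

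*Tgfbr1* encodes the type I receptor kinase that phosphorylates SMAD proteins (ENSMUSG00000007613, chromosome 4, 47353222 to 47414931). Its FPKM was 34.4, 35.8 and 40.7 in wild-type, 41.4, 47.0 and 31.4 in M-Shp2-/- and 33.0, 37.2 and 33.8 in SHP099 libraries. All groups overlapped, and M-Shp2-/- library 3 was the lowest of the 9.

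*Tgfbr2* encodes the type II receptor, which binds the ligand and activates the type I chain (ENSMUSG00000032440, chromosome 9, 116084293 to 116175360). Its FPKM was 8.47, 7.83 and 6.28 in wild-type, 13.4, 12.5 and 11.6 in M-Shp2-/- and 11.3, 11.3 and 9.11 in SHP099 libraries. It was the only one of the 10 genes for which wild type was the lowest group without overlap with either other group.

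*Chil3* (Ym1) encodes a secreted chitinase-like lectin of alternatively activated macrophages (ENSMUSG00000040809, chromosome 3, 106147554 to 106167564). Its FPKM was 103, 221 and 127 in wild-type, 47.5, 88.8 and 122 in M-Shp2-/- and 56.7, 57.5 and 55.3 in SHP099 libraries. The SHP099 libraries were close to each other and below all wild-type libraries, whereas M-Shp2-/- libraries ran from below the SHP099 values to within the wild-type range. Its close paralog *Chil4* was at 0 to 0.0324 FPKM in the 9 libraries.

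*Retnla* (Fizz1, RELM alpha) encodes a secreted cysteine-rich protein that is a classical target of STAT6 (ENSMUSG00000061100, chromosome 16, 48842551 to 48844461). Its FPKM was 7.16, 20.7 and 2.83 in wild-type, 10.2, 12.4 and 1.10 in M-Shp2-/- and 0.267, 0.294 and 0.610 in SHP099 libraries. All SHP099 libraries were below all others, at 3.82% of the wild-type mean. M-Shp2-/- library 3 was the nearest to them, and within wild type the libraries ranged from 2.83 to 20.7 FPKM.

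**Figure D1:**
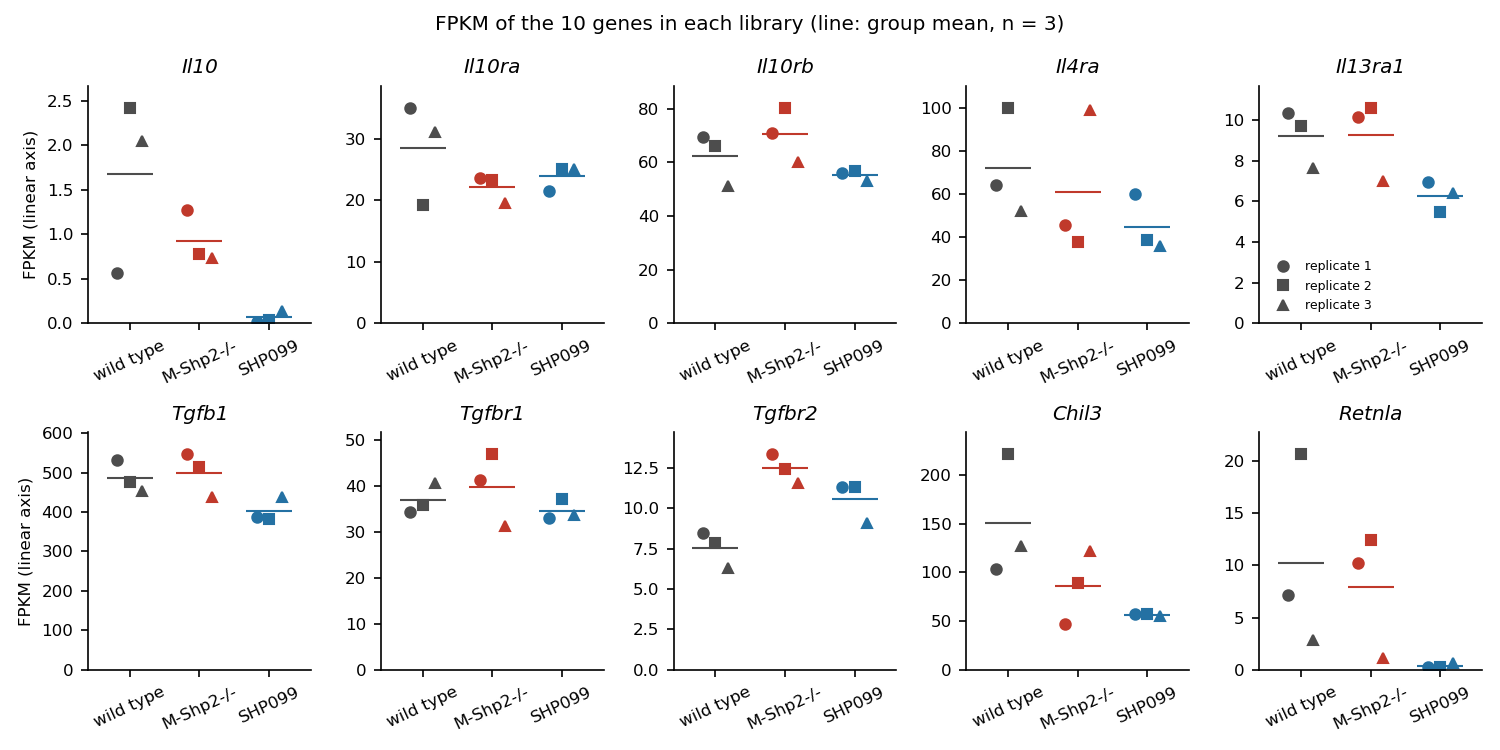
FPKM (vertical axis, linear, from 0) of the 10 genes in wild-type, M-Shp2-/- and SHP099 libraries, 1 symbol per library by replicate number, with a line at each group mean (n = 3). *Il10* and *Retnla* were near 0 in the SHP099 libraries, *Tgfbr2* was lowest in wild type, and *Il4ra* was high in wild-type library 2 and M-Shp2-/- library 3.

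Since *Chil3* and *Retnla* are the genes that passed a threshold below, the sequence before their starts is shown, from RefSeq on GRCm38.p6. Windows were found for 7 of the 10 genes, and *Il10*, *Il10ra* and *Il10rb* had none. The 250 bases before each start were searched on both strands for the palindromes TTCNNNNGAA and TTCNNNGAA, in which STAT proteins bind TTC and GAA arms with 4 or 3 bases between, for TTGCNNAA, a C/EBP-type motif, and for the SMAD box CAGAC. The capitals mark the matches of the first 3 motifs in the 192 bases of *Retnla* that precede both its RefSeq and its GENCODE start (chr16:48842359-48842550, plus strand) and in the 250 bases before *Chil3* (chr3:106167565-106167814, minus strand).
*Retnla*: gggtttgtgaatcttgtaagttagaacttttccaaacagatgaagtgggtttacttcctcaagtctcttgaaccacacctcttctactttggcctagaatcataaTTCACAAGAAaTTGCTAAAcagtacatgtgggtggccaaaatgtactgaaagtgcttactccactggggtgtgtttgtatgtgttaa
*Chil3*: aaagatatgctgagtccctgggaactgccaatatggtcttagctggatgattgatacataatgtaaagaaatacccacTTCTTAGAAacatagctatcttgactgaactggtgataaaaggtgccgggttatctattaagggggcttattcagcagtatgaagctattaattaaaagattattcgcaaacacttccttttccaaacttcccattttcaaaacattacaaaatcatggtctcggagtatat

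Among the 8 windows of these genes (*Tgfbr1* had 2), TTCNNNNGAA was found only in *Retnla* and in 5.85% of all 32851 promoters of the same length, and TTCNNNGAA only in *Chil3* and in 7.02% of all. In *Retnla* the STAT-type match ended 77 bases before the GENCODE start, and a TTGCNNAA match lay next to it. TTGCNNAA was also in *Tgfbr2* and in 9.56% of all promoters, and CAGAC was in windows of *Tgfbr1*, *Tgfbr2*, *Il4ra* and *Il13ra1* and in 42.2% of all. A match describes letters in the window and was not tested for binding.

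The comparison of M-Shp2-/- with wild-type macrophages asks what loss of SHP2 changed. None of the 9 tested genes was called by limma under the strict rule, which asks for a 2-fold difference in either direction on the log2(FPKM + 1) scale with an adjusted p of at most 0.005. Of all tested genes, 0.00873% were (1 of 11450). Under the relaxed rule, an adjusted p of at most 0.05 alone, limma called none of the 9 and 0.0873% of all (10 genes). An unadjusted p under 0.05 was found for 1 of the 9 and for 1204 of the 11450, and voom on recovered reads called none of the 9 under either rule. The gene was *Tgfbr2*, with 12.5 ± 0.88 FPKM in M-Shp2-/- and 7.53 ± 1.12 FPKM in wild-type macrophages (SD, n = 3 each), a log2 fold change of 0.67 (standard error 0.14, limma adjusted p = 0.388). Its libraries did not overlap, which held for 1 of the 9 upward, beside 16% of all tested genes, and for 0 of the 9 downward, beside 3.07%.

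The other log2 fold changes in this comparison were -0.31 for *Il10ra*, 0.18 for *Il10rb*, -0.32 for *Il4ra*, -0.01 for *Il13ra1*, 0.03 for *Tgfb1* and 0.09 for *Tgfbr1*. *Chil3* had -0.83 (95% confidence interval -1.79 to 0.13, limma adjusted p = 0.479) and *Retnla* -0.37 (interval -2.45 to 1.72, limma adjusted p = 0.842). The intervals of both target genes include no change as well as more than a 2-fold decrease. Without M-Shp2-/- library 3, none of the 9 genes was called by limma (0% of all genes under the strict rule and 0.0699% under the relaxed rule), *Chil3* had -1.12 (adjusted p = 0.236), *Il4ra* had -0.73 (adjusted p = 0.242), and *Retnla* turned to 0.48 (adjusted p = 0.670).

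The comparison of SHP099 with wild-type macrophages asks what inhibition of the SHP2 protein changed, with the same 3 wild-type libraries as controls. *Chil3* fell to 56.5 ± 1.10 FPKM from 150.7 ± 62.4 FPKM (SD, n = 3 each), a log2 fold change of -1.32 (standard error 0.25, limma adjusted p = 0.0322), with all 3 libraries below wild type. *Retnla* fell to 0.390 ± 0.191 FPKM from 10.2 ± 9.30 FPKM (SD, n = 3 each), a log2 fold change of -2.67 (standard error 0.56, limma adjusted p = 0.0390). On the FPKM scale the wild-type means were 2.67-fold and 26.2-fold higher. With 1 library left out at a time these folds ranged from 2.04 to 3.09 for *Chil3* and from 12.8 to 36.5 for *Retnla*, the lowest of both without wild-type library 2 (20.7 FPKM of *Retnla*).

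Under the strict rule none of the 9 genes was called, beside 0.166% of all tested genes (19 of 11450), and voom also called none. An unadjusted p under 0.05 was found for 6 of the 9, beside 3061 of all. Under the relaxed rule limma called 2 of the 9 genes, both lower, beside 6.96% of all genes in either direction, 2.41% lower and 4.55% higher. Groups were free of overlap for 4 of the 9 genes that were lower with SHP099 (*Il13ra1*, *Tgfb1*, *Chil3* and *Retnla*), beside 6.77% of all genes, and for 1 that was higher (*Tgfbr2*), beside 27.9%.

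Of the receptor and ligand genes, *Il13ra1* had a log2 fold change of -0.49 (limma adjusted p = 0.0927), *Tgfb1* -0.28 (adjusted p = 0.129) and *Il4ra* -0.66 (adjusted p = 0.183). *Tgfbr2* had 0.45 (limma adjusted p = 0.108), from 7.53 ± 1.12 to 10.6 ± 1.29 FPKM (SD, n = 3 each). None of these passed. *Il10ra*, *Il10rb* and *Tgfbr1* had -0.20, -0.16 and -0.09.

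The calls of *Chil3* and *Retnla* were lost without some of the libraries and under some fits of all libraries. Both held without wild-type library 2 or 3 (limma adjusted p = 0.0182 and 0.0377 for *Chil3*, 0.0377 and 0.0122 for *Retnla*). That of *Chil3* also held without wild-type library 1 (limma adjusted p = 0.0344). Without SHP099 library 1, 2 or 3 the limma adjusted p was 0.115, 0.136 or 0.0955 for *Chil3* and 0.134, 0.165 or 0.0997 for *Retnla*, and without wild-type library 1 it was 0.0898 for *Retnla*. With all libraries kept it was 0.129 and 0.154 with no filter on low FPKM and 0.0577 and 0.0708 with all 9 libraries in 1 fit. For *Retnla* it was also 0.0607 by voom and 0.0552 with a replicate block. Their log2 fold changes stayed negative, from -1.56 to -1.01 and from -4.34 to -2.02 over all 12 alternatives.

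Most genes lay slightly above wild type in both comparisons. The median log2 fold change over all tested genes was 0.15 for M-Shp2-/- and 0.13 for SHP099, and median-of-ratios scaling moved these medians to 0.01 and 0.00. With that scaling the 797 genes called under the relaxed rule with SHP099 (521 higher, 276 lower) became 576 (200 higher, 376 lower). For the 9 genes, the median log2 fold change was -0.01 in M-Shp2-/- and -0.28 with SHP099 as deposited, and -0.15 and -0.42 after scaling. *Tgfbr2* stayed positive after scaling, at 0.52 and 0.32, whereas *Tgfb1* and *Tgfbr1* turned negative in M-Shp2-/- macrophages, at -0.12 and -0.06. *Il13ra1* passed the relaxed rule with SHP099 after scaling (log2 fold change -0.61, limma adjusted p = 0.0357).

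**Figure D2:**
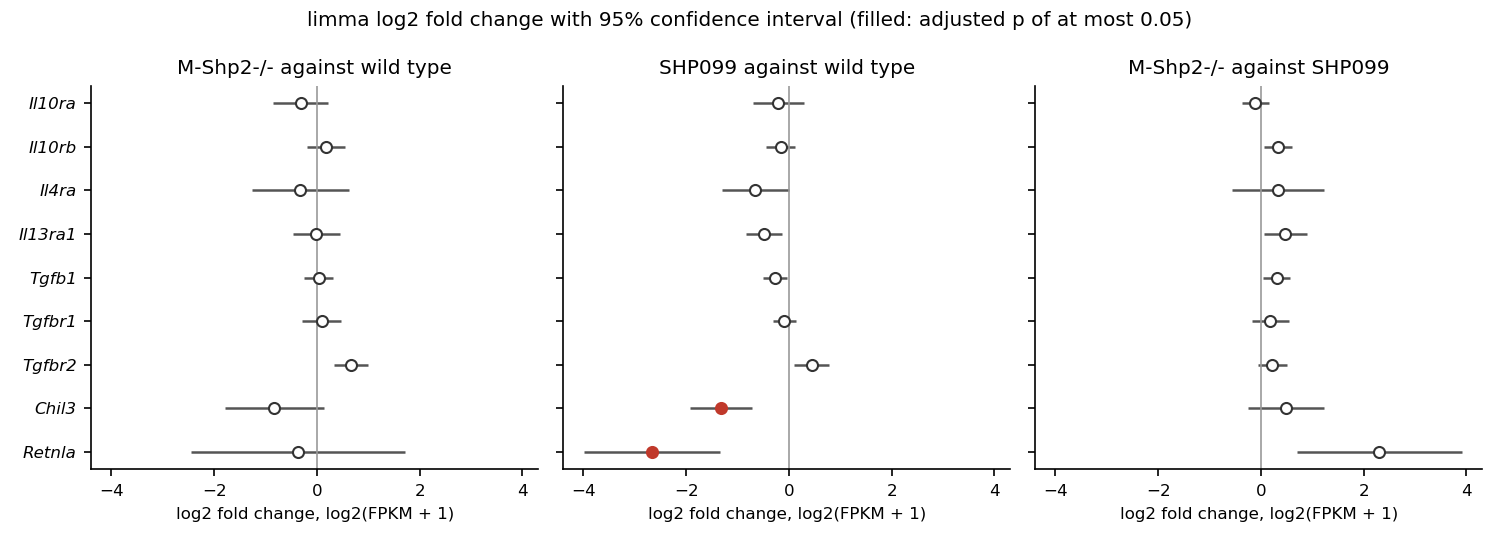
Log2 fold change on the log2(FPKM + 1) scale (horizontal axis) with its 95% confidence interval for the 9 tested genes in the 3 comparisons, from limma with 3 libraries per group. Filled points mark an adjusted p of at most 0.05, which only *Chil3* (-1.32) and *Retnla* (-2.67) reached, in SHP099 against wild type.

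Compared directly, M-Shp2-/- and SHP099 macrophages differ in whether the protein or its activity was removed, and in genotype against drug exposure. None of the 9 genes was called by limma under either rule, beside 0% of all genes under the strict rule and 0.0699% (8 genes) under the relaxed rule, although 4 of the 9 and 1437 of all genes had an unadjusted p under 0.05. By voom none of the 9 was called. The libraries did not overlap for 4 of the 9 genes, all higher in M-Shp2-/- macrophages (*Il10rb*, *Il13ra1*, *Tgfbr2* and *Retnla*), beside 7.9% of all genes, and for none that was lower, beside 9.76%. *Retnla* had a log2 fold change of 2.30 (standard error 0.67, limma adjusted p = 0.316).

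M-Shp2-/- library 3 decided this count. Without it, limma called 1 of the 9 genes under the strict rule, beside 1.39% of all (159 genes), and 5 of the 9 under the relaxed rule, beside 19.9% of all (2277 genes). The gene called under the strict rule was *Retnla*, with a log2 fold change of 3.15 (limma adjusted p = 0.00105). The others, also higher in M-Shp2-/- macrophages, were *Il10rb* (0.45, adjusted p = 0.0125), *Il13ra1* (0.65, adjusted p = 0.0143), *Tgfb1* (0.40, adjusted p = 0.0215) and *Tgfbr1* (0.34, adjusted p = 0.0412).

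The lengths behind the FPKM fitted the mean over the annotated transcripts of a gene, so levels are only roughly comparable between genes. By mean FPKM, the order in wild type was *Tgfb1* (487 ± 41.0, SD, n = 3), *Chil3* (150.7), *Il4ra* (72.1), *Il10rb* (62.3), *Tgfbr1* (37.0), *Il10ra* (28.5), *Retnla* (10.2), *Il13ra1* (9.24), *Tgfbr2* (7.53) and *Il10* (1.68). Neighbors in this order whose libraries overlapped were *Il4ra* and *Il10rb*, *Tgfbr1* and *Il10ra*, and each pair from *Il10ra* to *Tgfbr2*. In the SHP099 group *Retnla* was ninth, at 0.390 FPKM, and *Tgfbr2* and *Il13ra1* stood above it without overlap. *Tgfb1* was above 98.1% and *Chil3* above 89.1% of the tested genes by mean FPKM.

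The rest of the 3 pathways was read from 9 lists of 141 further genes, of which 102 were tested. In M-Shp2-/- against wild-type macrophages, 0 of the 102 were called under the strict rule by limma (24 had an unadjusted p under 0.05, beside 10.5% of all tested genes, and voom called 0) and 1 was called under the relaxed rule, *Il1rn*, beside 0.0873% of all. Without M-Shp2-/- library 3, limma called 0 under the strict rule and 1 under the relaxed rule, beside 0% and 0.0699% of all tested genes. In that fit 31 of the 102 had an unadjusted p under 0.05. The share of all tested genes at that level without library 3 is not given here, so the 31 cannot be set against it. With SHP099, 2 were called under the strict rule, both lower, beside 0.166% of all tested genes, and 22 under the relaxed rule, 17 lower and 5 higher, beside 2.41% lower and 4.55% higher of all. The median log2 fold change of the 102 genes was 0.01 in M-Shp2-/- macrophages and -0.11 with SHP099, beside 0.15 and 0.13 over all tested genes.

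Among 14 tested genes of IL-10 signaling and response, 4 were lower and 1 was higher with SHP099 under the relaxed rule, beside the same 2.41% and 4.55% of all genes. *Il1rn*, which encodes the IL-1 receptor antagonist, had an FPKM of 348, 440 and 445 in wild-type, 144, 147 and 131 in M-Shp2-/- and 54.8, 47.2 and 58.8 in SHP099 libraries, and the 3 groups did not overlap. Its log2 fold change was -1.53 in M-Shp2-/- (limma adjusted p = 0.0168) and -2.91 with SHP099 (limma adjusted p = 0.000742), and the difference between M-Shp2-/- and SHP099 macrophages was 1.38 (adjusted p = 0.0109). The call in M-Shp2-/- against wild type held in 6 of 12 alternatives (highest limma adjusted p 0.196), and that against SHP099 in 5 (highest 0.146). *Socs3*, the feedback inhibitor induced by STAT3, fell to 378 ± 68.2 from 1138 ± 333 FPKM with SHP099 (SD, n = 3 each; limma adjusted p = 0.0157), and was 455 ± 29.0 FPKM in M-Shp2-/- macrophages (adjusted p = 0.204).

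*Bcl3* and *Nfil3*, nuclear factors that IL-10 induces in macrophages, were also lower with SHP099, with log2 fold changes of -0.96 (limma adjusted p = 0.0136) and -0.99 (adjusted p = 0.0192). Heme oxygenase 1 (*Hmox1*) was higher, at 1.03 (adjusted p = 0.0325). The median of the list was -0.38 in M-Shp2-/- and -0.21 with SHP099. Of the IL-10 family ligands and receptors, 2 of 9 genes were tested, and *Il22* was the one with the largest difference, at 0.934, 3.39 and 4.53 FPKM in wild type, 0.146, 0 and 0.356 in M-Shp2-/- and 0, 0 and 1.17 in SHP099 libraries. Neither its log2 fold change of -1.64 in M-Shp2-/- (limma adjusted p = 0.412) nor that of -1.48 with SHP099 (adjusted p = 0.101) passed.

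The IL-4 and IL-13 response list had the lowest median of the 9 lists with SHP099, -1.40 over 13 genes, of which 11 were negative, beside 28.8% of all tested genes, and 6 were called lower under the relaxed rule, beside 2.41% of all. The mannose receptor *Mrc1* (CD206) was 61.5, 43.8 and 43.5 FPKM in wild-type, 59.8, 71.2 and 19.4 in M-Shp2-/- and 10.3, 10.1 and 9.79 in SHP099 libraries. Its SHP099 values were tight and below all others, a log2 fold change of -2.18 (limma adjusted p = 0.00289) that was called under the strict rule. M-Shp2-/- library 3 again stood between its group and SHP099.

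The other 5 were the beta-glucan receptor *Clec7a* (-1.93, limma adjusted p = 0.0131), *Itgax* (-2.23, adjusted p = 0.0224), the scavenger receptors *Msr1* (-1.11, adjusted p = 0.0129) and *Cd36* (-0.79, adjusted p = 0.0454), and the arginine transporter *Slc7a2* (-1.57, adjusted p = 0.0424). In M-Shp2-/- macrophages the list had a median of -0.08 and none was called. The log2 fold changes there were -0.78 for *Clec7a*, 0.04 for *Itgax*, -0.52 for *Msr1*, 0.17 for *Cd36* and -1.26 for *Slc7a2*. Without M-Shp2-/- library 3, the value of *Itgax* was 1.37 (limma adjusted p = 0.225) and the median of the list was 0.20. Several genes of this list, *Itgax*, *Msr1* and *Cd36* among them, are also expressed by macrophages that have not met IL-4.

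The ligands were low. *Il4* was between 0.514 and 2.21 FPKM and *Il13* between 0 and 0.0757 FPKM in the 9 libraries, and *Il33*, an alarmin of stromal cells, was between 0.426 and 28.3 FPKM, highest in M-Shp2-/- library 3 and wild-type library 2. *Il33* had the largest log2 fold change of its list in each comparison and passed in none (-0.80 in M-Shp2-/-, adjusted p = 0.752, and -1.58 with SHP099, limma adjusted p = 0.233). Without M-Shp2-/- library 3 its log2 fold change against wild type was -2.11 (limma adjusted p = 0.252). Of 15 tested genes of IL-4 and IL-13 signaling, 4 were called lower and 1 higher with SHP099, beside 2.41% and 4.55% of all genes. *Cish*, a STAT5-induced SOCS family gene, was 16.5, 11.3 and 13.1 FPKM in wild-type, 4.80, 5.51 and 1.88 in M-Shp2-/- and 2.36, 0.873 and 2.31 in SHP099 libraries.

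Both other groups lay below wild type for *Cish*, with log2 fold changes of -1.60 (limma adjusted p = 0.388) in M-Shp2-/- and -2.39 (adjusted p = 0.00846) with SHP099. The transcription factor *Irf4* (-0.84, adjusted p = 0.0490), the histone demethylase *Kdm6b* (-0.80, adjusted p = 0.0383) and the kinase *Jak2* (-0.57, limma adjusted p = 0.0485) were lower with SHP099, and *Akt1* was higher (0.33, adjusted p = 0.0383). *Pparg*, a regulator of lipid metabolism in alternatively activated macrophages, had the largest difference of the list between M-Shp2-/- and SHP099 macrophages, 1.13 (limma adjusted p = 0.414), and 1.75 (adjusted p = 0.00240) without M-Shp2-/- library 3.

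Of 11 tested genes of TGF-beta ligands and activation, 2 were lower with SHP099 (2.41% of all genes were), the integrin alpha V gene *Itgav* (-0.94, limma adjusted p = 0.0228) and the protease gene *Furin* (-0.76, adjusted p = 0.0215), whose product cleaves the TGF-beta precursor. *Itgav* was 47.3 ± 9.32 FPKM in wild-type and 24.0 ± 3.04 FPKM in SHP099 macrophages (SD, n = 3 each). *Thbs1*, which encodes the TGF-beta activator thrombospondin 1, had the largest difference of the list with SHP099, -0.96 (limma adjusted p = 0.118), and *Ltbp2*, a matrix protein gene of the latent TGF-beta binding protein family, the largest in M-Shp2-/-, 0.98 (adjusted p = 0.538).

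Of 22 tested genes of TGF-beta receptors and signaling, only the co-receptor gene *Eng* was called with SHP099, a share near the 4.55% of all genes called higher, from 10.8 ± 1.35 to 20.7 ± 3.32 FPKM (SD, n = 3 each; log2 fold change 0.88, limma adjusted p = 0.0228). In M-Shp2-/- it had 0.22 (adjusted p = 0.569), and the largest difference of that list was 0.62 for the signal transducer *Smad3* (limma adjusted p = 0.467). Of 12 tested genes of the TGF-beta response, only *Tgfbi* was called with SHP099, higher (beside the same 4.55%), from 4.54 ± 0.24 to 8.03 ± 1.36 FPKM (SD, n = 3 each; log2 fold change 0.69, adjusted p = 0.0351). It was 9.37 ± 2.49 FPKM in M-Shp2-/- macrophages (adjusted p = 0.398), and libraries of neither group overlapped wild type.

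After median-of-ratios scaling *Eng*, *Tgfbi*, *Akt1* and *Kdm6b* had adjusted p values of 0.0689, 0.0530, 0.239 and 0.0604 from limma, so these 4 calls were lost. Their log2 fold changes were then 0.74, 0.57, 0.18 and -0.94, so only that of *Akt1* was much smaller than before. *Ccn2*, a matricellular gene of fibroblasts, had the largest difference of the TGF-beta response list in M-Shp2-/-, 1.60 (limma adjusted p = 0.454), with 3.65, 1.23 and 6.04 FPKM against 0.362, 0.889 and 0.0135 FPKM in wild type. Its highest value was in M-Shp2-/- library 3, the library with the most *Col1a1*. The part of stromal transcripts in it was not tested.

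Among 19 tested *Il10* regulators, 2 were lower and 1 was higher with SHP099, beside 2.41% and 4.55% of all genes. *Bhlhe40*, a repressor of *Il10*, was 177, 191 and 180 FPKM in wild-type, 143, 159 and 94.1 in M-Shp2-/- and 89.0, 68.9 and 89.6 in SHP099 libraries. It had a log2 fold change of -1.15 with SHP099 (limma adjusted p = 0.00769) and -0.50 in M-Shp2-/- (adjusted p = 0.465). *Nfil3*, also on this list, was lower with SHP099, and *Bhlhe41* was higher, at 0.70 (adjusted p = 0.0414), with 0.76 in M-Shp2-/- (limma adjusted p = 0.454).

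Between M-Shp2-/- and SHP099 macrophages, 0 of the 102 genes were called under the strict rule by limma, beside 0% of all tested genes, and 0 by voom. An unadjusted p under 0.05 was found for 23, beside 12.6% of all, and 1 (*Il1rn*) passed the relaxed rule, beside 0.0699%. Without M-Shp2-/- library 3 the strict and relaxed counts became 6 and 35, while the shares of all tested genes rose to 1.39% and 19.9%. The 6 were *Il1rn*, *Mrc1* (2.58), *Itgax* (3.61), *Pparg* (1.75), the chemokine *Ccl22* (2.50) and *Nrros* (1.14), whose product anchors latent TGF-beta1, all higher in M-Shp2-/- libraries 1 and 2. With library 3 kept, the largest differences of their own lists included 2.27 for *Itgax* in the IL-4 and IL-13 response (limma adjusted p = 0.421), 0.92 for the SMAD-inhibitor gene *Pmepa1* in TGF-beta receptors and signaling (adjusted p = 0.358) and 0.75 for *Nrros* in TGF-beta ligands and activation (adjusted p = 0.392).

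The calls with SHP099 under the relaxed rule varied in how far they held. Those of *Il1rn* and *Mrc1* held in all 12 alternatives and those of *Bhlhe40*, *Cish* and *Clec7a* in 11, whereas *Akt1*, *Jak2* and *Tgfbi* passed in 4 and *Irf4* in 3. The highest limma adjusted p of these last 4 was 0.239, 0.192, 0.130 and 0.193, and the remaining calls held in 5 to 9.

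Of the 22 named genes from these lists that passed the relaxed rule, 9 share exon positions with an annotated gene of the other strand (*Bcl3*, *Cish*, *Kdm6b*, *Slc7a2*, *Itgav*, *Furin*, *Eng*, *Bhlhe40* and *Bhlhe41*), and the strand of counting is not given in the sources used here.

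**Figure D3:**
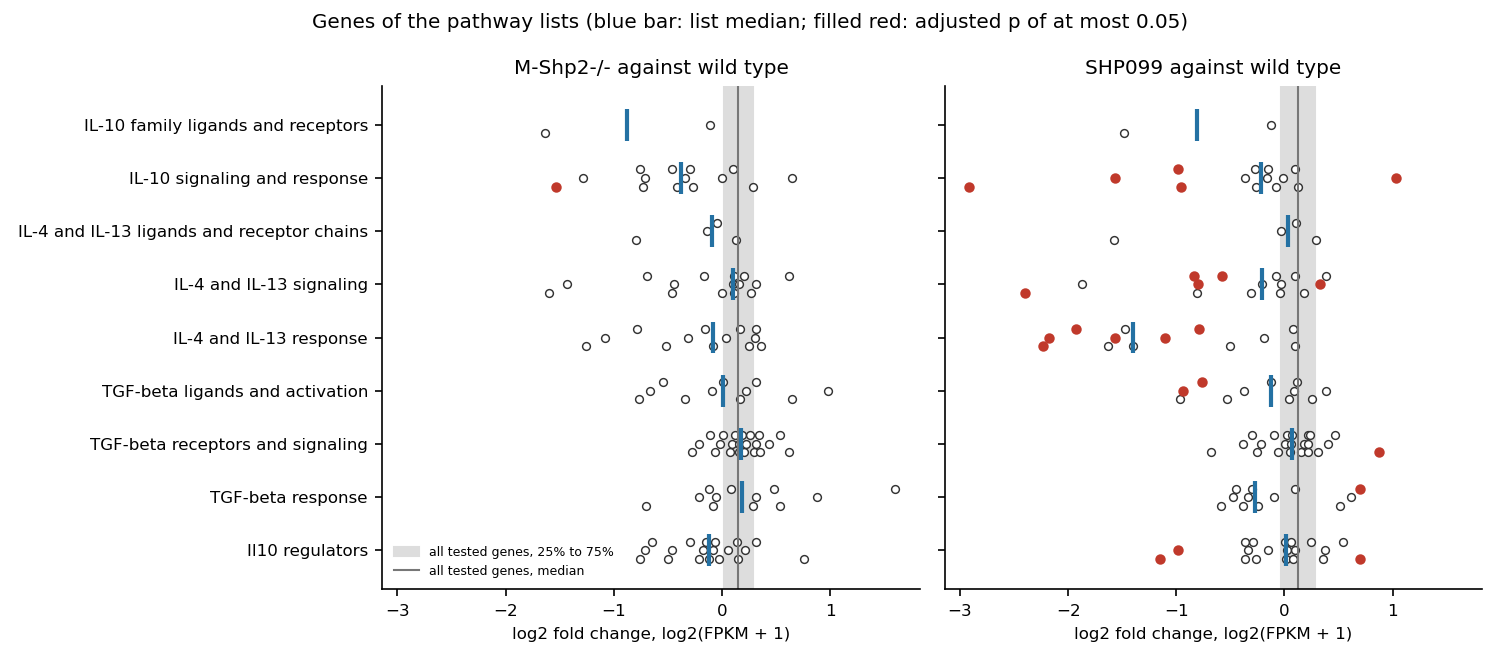
Log2 fold change (horizontal axis) of each tested gene of the 9 pathway lists in M-Shp2-/- and in SHP099 against wild-type macrophages, 1 point per gene, spread vertically for display only. Blue bars mark list medians, gray the middle 50% of all tested genes, and red an adjusted p of at most 0.05; the IL-4 and IL-13 response list had a median of -1.40 with SHP099 and -0.08 in M-Shp2-/-.

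**Figure D4:**
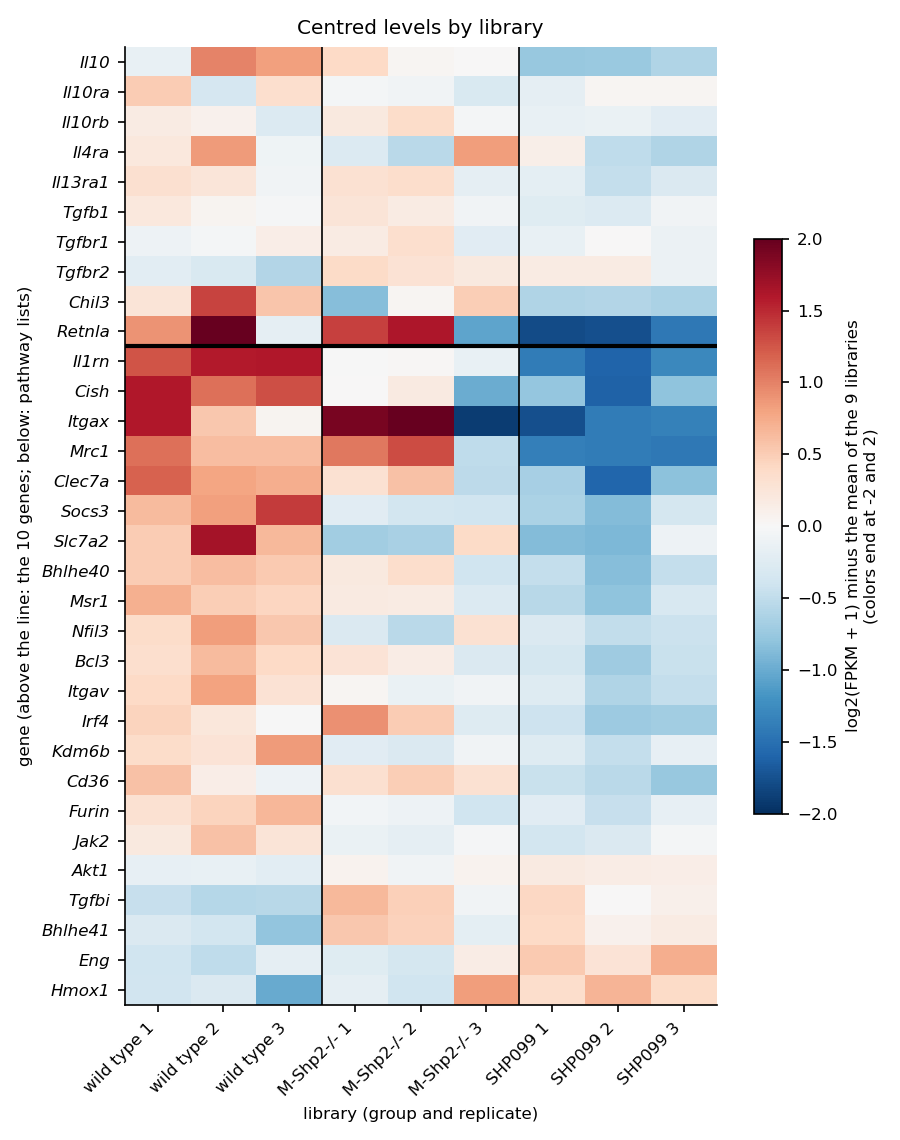
Centred log2(FPKM + 1) in the 9 libraries (columns) of the 10 genes and of the 22 pathway genes that passed the relaxed rule in any comparison, colors ending at -2 and 2. M-Shp2-/- library 3 lay nearer to the SHP099 libraries than to its own group for *Retnla*, *Itgax* and *Mrc1*.

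The genes whose profile over the 9 libraries was most like that of a given gene were found by the root mean square (RMS) difference of mean-centred log2(FPKM + 1). For *Retnla* these were *Pdgfa*, Novel00087, a gene of the deposited table without an Ensembl identifier, and *Slc6a12*, with an RMS of 0.57, 0.58 and 0.63, beside a median of 1.51 over all tested genes. *Pdgfa* was 32.2, 27.6 and 12.3 FPKM in wild-type, 26.2, 38.8 and 5.87 in M-Shp2-/- and 6.20, 4.94 and 4.53 in SHP099 libraries, so it shared the low values of M-Shp2-/- library 3 and of SHP099.

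For *Chil3* the nearest were *Gda*, *Acp5* and *Gm26584* (0.32, 0.33 and 0.35, median 0.77), and for *Il10* *Slc1a2*, *Mtmr7* and *Gm23374* (0.18, 0.24 and 0.24, median 0.68). *Gm26584* overlaps *Slc7a2* on the opposite strand. *Il4ra* was most like *Tmtc2*, *Rhou* and *Nrip1* (0.18, 0.19 and 0.21, median 0.59), which were all highest in wild-type library 2 or M-Shp2-/- library 3. *Tgfb1* was most like *Ctdnep1*, *Pwp1* and *Slc39a1* (0.06, 0.06 and 0.07, median 0.27). These are descriptions over 9 libraries in 3 groups, and a flat profile such as that of *Tgfb1* has close neighbors easily.

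Macrophage markers dominated every library. All 8 were at a mean of at least 1 FPKM, their sum was 10420, 13421 and 11189 FPKM in wild-type, 7595, 7468 and 8412 in M-Shp2-/- and 11778, 13005 and 13736 in SHP099 libraries, and the most abundant was *Lyz2*. *Lyz2* was lower in all M-Shp2-/- libraries (4863, 4743 and 5407 FPKM) than in wild type (7440, 10228 and 7951 FPKM). The Cre of these mice is driven from the *Lyz2* locus. Among the other macrophage markers, *Cd68* and *Csf1r* did not follow the sum. *Cd68* was 1603, 1740 and 1227 FPKM in M-Shp2-/- and 1498, 1339 and 1294 FPKM in wild-type libraries. *Csf1r* was 87.4, 71.8 and 176 FPKM and 58.2, 67.8 and 111 FPKM in the same order. *Mertk* did follow it, at 3.28 to 4.35 FPKM in M-Shp2-/- and 6.10 to 13.3 FPKM in wild-type libraries. In bulk samples, fewer cells of a type and less RNA per cell cannot be told apart.

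Of 10 markers of resident peritoneal macrophages, 7 reached that level, led by *Cd9*, and the sum was 590, 510 and 379 FPKM in wild-type, 741, 847 and 292 in M-Shp2-/- and 339, 333 and 294 in SHP099 libraries. Monocyte markers (4 of 6, led by *Vcan*) summed to 39.7, 46.9 and 45.1 FPKM, 23.3, 21.9 and 45.7 FPKM, and 19.6, 16.4 and 21.2 FPKM in the same order. *Ccr2* of that list went against the sum and was highest in the SHP099 libraries (0.671 to 1.56 FPKM, beside 0.155 to 0.506 in wild type). The low resident sum of M-Shp2-/- library 3 came from *Cd9* (257 FPKM of 292). The other markers of that list did not move together there, *Gata6* being the highest of the 9 libraries (2.97 FPKM) and *Alox15* the lowest (0). In the SHP099 libraries the resident sum was also mostly *Cd9* (309, 308 and 259 FPKM). With SHP099, *Icam2* lay above all wild-type libraries (3.23 to 3.72 FPKM, beside 2.42 to 3.07). *Cd5l* lay below them (5.56 to 9.99 FPKM, beside 11.7 to 19.1). For the monocyte list the sum of M-Shp2-/- library 3 sat within wild type. Dendritic cell markers (1 of 7, *Ccr7*) summed to 6.28, 4.11 and 3.87 FPKM, 7.63, 5.25 and 3.67 FPKM, and 1.50, 1.03 and 1.35 FPKM. The sum was lowest in all SHP099 libraries, as was *Retnla*, and any link between them was not tested. *Ccr7* was 0.305 to 0.727 FPKM in SHP099 and 2.83 to 5.04 FPKM in wild-type libraries. *Clec9a* was at 0 with SHP099, but reached only 0.0287 to 0.0344 FPKM in wild type. *Xcr1*, of the same list, did not follow the sum, with 0.0614 to 0.107 FPKM in SHP099, 0.0109 to 0.0394 in M-Shp2-/- and 0.0304 to 0.148 in wild-type libraries.

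Eosinophil markers were near 0, with 0 of 6 at that level, *Ear6* at 0 in all 9 libraries, and sums of 0.0186 to 1.00 FPKM led by *Siglecf*. Mast cell and basophil markers (2 of 8, led by *Il4*) summed to 5.92 to 7.67 FPKM in wild type, 3.59 to 3.98 in M-Shp2-/- and 2.26 to 2.78 in SHP099 libraries, although *Il4* itself was not lower with SHP099 (1.29 to 2.21 FPKM, beside 0.914 to 1.66 in wild type). Neutrophil markers (4 of 11, led by *S100a8*) summed to 62.6 to 164 FPKM, the highest in M-Shp2-/- library 3. T and NK cell markers (1 of 10, *Il7r*) summed to 96.7 to 105 FPKM in wild type, 66.8 to 156 in M-Shp2-/- and 55.4 to 65.8 in SHP099 libraries, and came almost entirely from *Il7r*. The T cell receptor genes *Cd3e* and *Cd3g* went the other way, with *Cd3g* at 1.27 to 2.42 FPKM in SHP099 and 0.187 to 1.05 FPKM in wild-type libraries.

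B cell markers (4 of 7, led by *Igkc*) summed to 16.6, 39.2 and 114 FPKM in wild-type, 61.8, 27.9 and 435 in M-Shp2-/- and 53.3, 28.5 and 66.8 in SHP099 libraries. Stromal and mesothelial markers (6 of 10, led by *Col1a1*) summed to 66.3, 310 and 41.4 FPKM, 139, 52.8 and 595 FPKM, and 367, 142 and 103 FPKM in the same order. Their highest values, in M-Shp2-/- library 3, SHP099 library 1 and wild-type library 2, included the libraries in which *Il4ra* was highest. The part of these cell types in the levels of the 10 genes was not tested.

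**Figure D5:**
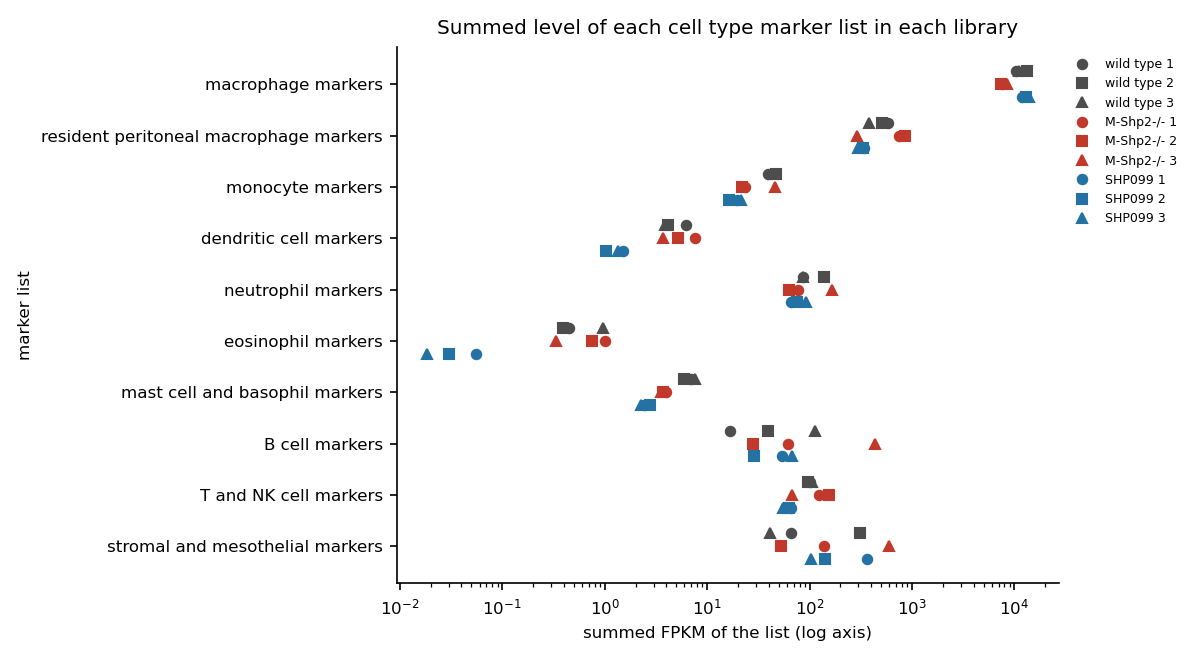
Summed FPKM (horizontal axis, log scale) of 10 cell type marker lists in each of the 9 libraries, by group (color) and replicate number (symbol). The macrophage sum was 7468 to 13736 FPKM, the dendritic cell sum was lowest with SHP099 (1.03 to 1.50 FPKM), and B cell and stromal sums were highest in M-Shp2-/- library 3.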

How the data were processed

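Per the labels and the study's methods, RNA of 9 libraries was sequenced after poly-A selection. The authors processed the reads with CASAVA 1.8, HISAT2 2.0.4 and HTSeq 0.9.1 (submitters' processing notes) and deposited 1 FPKM value per gene and library; the tool that made the FPKM, the genome build, annotation and strand setting are not given in the sources used here. Groups and replicate numbers came from the sample titles, and the times and doses of IMQ and SHP099 from the study's methods. A table of assembled gene spans holds no measurement and was not used.

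Gene positions, symbols and mean transcript lengths came from GENCODE M21. FPKM multiplied by mean transcript length fell within 0.05 of whole multiples of 1 step in 96.3% to 96.7% of values of up to 50 reads, and the step gave the depth per library and the reads of *Il10*, all whole. Reads of other genes can be approximate, whatever their number of transcripts. The largest distance from a whole number was 0.488 for *Retnla*, with 1 transcript, and 8.9e-07 for *Il10rb*, with 5.

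Of all genes, those averaging 1 FPKM or more across libraries were tested with limma 3.58.1 (R 4.3.3; lmFit, eBayes with trend) on log2(FPKM + 1), using the 6 libraries compared, with Benjamini-Hochberg adjustment over all 11450 genes. The authors used a count model; here voom on the recovered reads was run as an alternative. The strict rule took the study's thresholds (adjusted p of at most 0.005 with a log2 fold change of 1 or more either way), the relaxed rule an adjusted p of at most 0.05. Fold changes on this scale understate those of low genes. The script was tested on simulated data.

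The members and the gene lists were chosen with earlier results of these data known. Named were the 10 genes and *Ptpn11*; from the lists, each gene at an adjusted p of at most 0.05 in any comparison and the gene with the largest log2 fold change per list and comparison; per marker list the most abundant gene and those at 0 everywhere; and for 5 genes the 3 most alike. *Il4*, *Il13*, *Chil4*, *Clec9a*, *Xcr1*, *Gata6*, *Alox15*, *Ccr2*, *Cd3e*, *Cd3g*, *Cd68*, *Csf1r*, *Mertk*, *Icam2*, *Cd5l* and the genes that passed only without M-Shp2-/- library 3 were named after their values were seen.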

Additional observations from a re-analysis of the deposited data

How the results depend on the processing

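The alternatives tried were a pseudocount of 0.1, no filter on low FPKM, median-of-ratios scaling, all 9 libraries in 1 fit, a replicate block, voom on recovered reads, each library left out, and the relaxed rule. Of the single-gene values of the 10 genes under them, 315 kept their sign and their outcome under the strict rule, 11 reversed in sign and 1 was stronger. Calls under the relaxed rule were lost or gained among the 315.

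All reversals were of differences that had not passed. In M-Shp2-/- against wild type, leaving out 1 library at a time gave log2 fold changes of -0.13 to 0.16 for *Il13ra1*, -0.0345 to 0.13 for *Tgfb1*, -0.0339 to 0.25 for *Tgfbr1* and -0.96 to 0.48 for *Retnla*. Median-of-ratios scaling gave -0.12 for *Tgfb1* and -0.0629 for *Tgfbr1*. In M-Shp2-/- against SHP099, *Il4ra* ranged from -0.0760 to 0.61 with 1 library left out.

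With SHP099 against wild type, 0 of the 10 genes were called under the strict rule and 2 under the relaxed rule. Over 12 alternatives the limma adjusted p was 0.0182 to 0.136 for *Chil3* (at most 0.05 in 7) and 0.0122 to 0.165 for *Retnla* (at most 0.05 in 4), *Il13ra1* passed in 2 and *Il10rb* in 1 (without wild-type library 3, adjusted p = 0.0489). Of the pathway list genes, 2 were called under the strict rule, 22 under the relaxed rule, 0 with no filter, 1 with all 9 libraries in 1 fit, 0 with the replicate block, and 0 to 2 with 1 library left out. In M-Shp2-/- against wild type, 1 pathway gene (*Il1rn*) was called under the relaxed rule and 1 with all 9 libraries in 1 fit. In M-Shp2-/- against SHP099, leaving out 1 library gave 0 to 1 of the 10 genes and 0 to 6 pathway genes, the highest without M-Shp2-/- library 3, and the relaxed rule gave 1.

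With the replicate block, the adjusted p from limma with SHP099 was 0.0415 for *Chil3* and 0.0552 for *Retnla*. The deviations of libraries of the same number from their group means correlated at -0.43 to 0.49. With both signs present, these values do not show that the numbers pair samples, and they do not exclude it.

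Limits: 3 libraries per group, of unknown origin, leave wide intervals, and M-Shp2-/- library 3 widens those of its group. The 2 comparisons with wild type share their controls, and a low or high wild-type library moves both. Genotype and preparation cannot be told apart, nor can SHP099 and other effects of the drug. RNA says nothing of secreted IL-10, TGF-beta1 activation or receptor signaling. At this depth *Il10* with SHP099 rests on 11 reads.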
